A study of Mus musculus with 2 samples.

Results

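Expression of 6 genes of CD45 splicing and its surroundings was compared between 2 cultured mouse lymphomas, on 1 array each. The genes were Hnrnpll, Hnrnpl, Ptprc, Ptbp1, Ptbp2 and Ell2, and every probe set whose platform annotation gave only that symbol was taken, which gave 13 probe sets for 6 of the 18193 genes named on the arrays. Both arrays held RNA of B-lymphoma cells from mice with the Eµ-Myc transgene, in which the immunoglobulin heavy chain enhancer drives Myc in B-lineage cells. The labels give the genotype of one as Cdk4+/+ and of the other as Cdk4-/-, with lymph nodes as the source, and the cells were grown in culture before RNA extraction. The study asked what absence of the cyclin-dependent kinase Cdk4 goes along with in Myc-driven lymphoma. Each genotype was 1 culture on 1 array, so no difference below has a replicate, a standard error or a p-value.

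Ptprc encodes CD45, a transmembrane tyrosine phosphatase of nearly all blood cells that removes an inhibitory phosphate from kinases of the Src family. Its variable exons are included or skipped by cell type and stage: B cells carry the long form recognised as B220, while memory T cells and plasma cells shift to shorter forms. Hnrnpll, an RNA-binding protein induced in activated T cells and plasma cells, represses these exons. Its relative Hnrnpl, present in most cells, binds the same kind of silencing element. Ptbp1 and Ptbp2 are polypyrimidine tract binding proteins that also repress exons. Ptbp1 is widespread, and Ptbp2 is best known from neurons. In other cells Ptbp1 keeps Ptbp2 low by splicing its transcript into an unstable form. Ell2 is an elongation factor of RNA polymerase II that, in plasma cells, favours the processing of immunoglobulin heavy chain transcripts into the secreted form.

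Values are MAS5 signal intensities on a linear scale, and a signal of 62.2, the median over all probe sets of both arrays, served as a floor. Signals below it were set to it before log2 was taken, and differences are log2 on the array labelled Cdk4-/- minus log2 on the array labelled Cdk4+/+. A probe set above the floor on only 1 array gives a bound, written as at least that fold, and one below it on both gives none. Probe sets of the same gene disagreed with an SD of 0.31 in the log2 difference of a probe set (3082 genes with paired probe sets), which is the only error that could be measured. The targeted gene went against the labels: the 3 Cdk4 probe sets read 1.19, 1.18 and 3.71 on the array labelled Cdk4+/+ and 4945, 4506 and 6958 on the array labelled Cdk4-/-. Every direction below is that of the labels, and would turn if the 2 labels were swapped. B-cell markers were present on both arrays, with 8 of 8 analysed above the floor and Cd79a at 8121 against 9216. Their summed intensity was 51403 on the array labelled Cdk4+/+ and 50073 on the array labelled Cdk4-/-. Of the 8, 7 were higher on the array labelled Cdk4-/-, with a median difference of 0.10. Cd24a, the largest value in both sums, went the other way at 21831 against 15586.

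The start regions of 3 members are shown because Myc drives both lymphomas and with its partner Max binds the E-box CACGTG, and because Ptprc and Ell2 were the members with more signal on the array labelled Cdk4-/-. The sequences are RefSeq's for GRCm38.p6, from 250 bases before to 50 bases after an annotated start, 5′ to 3′ on the gene's strand, and 5 of the 6 members had an entry, Hnrnpll being the other. Capitals mark the E-box in Ptbp1 (chr10:79854182-79854481, plus strand), the cyclic AMP response element TGACGTCA in Ell2 (chr13:75707234-75707533, plus strand) and AGGAAGT, a motif of ETS factors, read on either strand in Ptprc (chr1:138175256-138175555, minus strand).
Ptbp1: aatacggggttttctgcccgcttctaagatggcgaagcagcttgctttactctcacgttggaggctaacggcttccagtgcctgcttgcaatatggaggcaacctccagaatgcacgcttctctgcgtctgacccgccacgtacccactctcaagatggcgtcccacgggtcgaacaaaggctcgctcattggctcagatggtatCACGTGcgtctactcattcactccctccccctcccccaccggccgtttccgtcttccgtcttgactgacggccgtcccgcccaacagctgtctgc
Ell2: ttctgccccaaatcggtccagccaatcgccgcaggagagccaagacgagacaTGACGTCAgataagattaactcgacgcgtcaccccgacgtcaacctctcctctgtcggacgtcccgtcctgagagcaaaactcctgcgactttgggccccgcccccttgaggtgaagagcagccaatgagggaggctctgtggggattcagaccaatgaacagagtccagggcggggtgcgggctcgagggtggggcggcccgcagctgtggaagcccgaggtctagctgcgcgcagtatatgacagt
Ptprc: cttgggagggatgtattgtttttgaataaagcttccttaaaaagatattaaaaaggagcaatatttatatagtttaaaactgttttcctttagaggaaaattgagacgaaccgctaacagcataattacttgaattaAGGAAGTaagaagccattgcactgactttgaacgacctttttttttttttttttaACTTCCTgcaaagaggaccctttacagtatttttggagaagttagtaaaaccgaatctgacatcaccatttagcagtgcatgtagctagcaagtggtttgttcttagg
The E-box of Ptbp1 began 45 bases before the start, the element of Ell2 198 bases before it, and the ETS-type motifs of Ptprc 113 and 58 bases before it. A second annotated start of Ptprc shares the nearer of these motifs. Searched on both strands, the E-box was in 7.15%, the cyclic AMP response element in 1.79% and the ETS-type motif in 9.35% of 32851 RefSeq promoters of the same length. The regions of Hnrnpl and Ptbp2 held none of the 3 letter strings. The Ptprc region was 33.7% G and C, the Ptbp2 region 74.7%, and the median over all promoters was 52.7%. These matches describe the letters of the reference and say nothing about binding in these cells.

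Hnrnpll had 12.2-fold less signal on the array labelled Cdk4-/- and was the only member past 2-fold. Its brighter probe set, 1425255_s_at, read 1736 on the array labelled Cdk4+/+ and 142 on the array labelled Cdk4-/-, a log2 difference of -3.61. The other, 1427144_at, read 570 against 53.2 and was thus at least 9.16-fold lower, since the second value lay under the floor. Both probe sets pointed the same way, and the _s_ in the first name marks probes that can match several transcripts, while the second has no such mark. The 2 probe sets stood above 89.7% and 77.7% of all probe sets in the Cdk4+/+ label's array, but above 60.9% and 47.8% in that of the Cdk4-/- label. Among the 9418 genes measured on both arrays, Hnrnpll ranked 8 from the lowest difference, and 26 genes, itself included, differed by at least as much in either direction. The members were selected on their signals on these same 2 arrays, Hnrnpll for its difference between them, so ranks and shares are descriptions. Of the 10720 genes above the floor on at least 1 array, 4.06% were 2-fold or more lower on the array labelled Cdk4-/- and 5.84% were 2-fold or more higher, and 1 of the 6 members was lower and 0 higher by that measure.

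**Figure D1:**
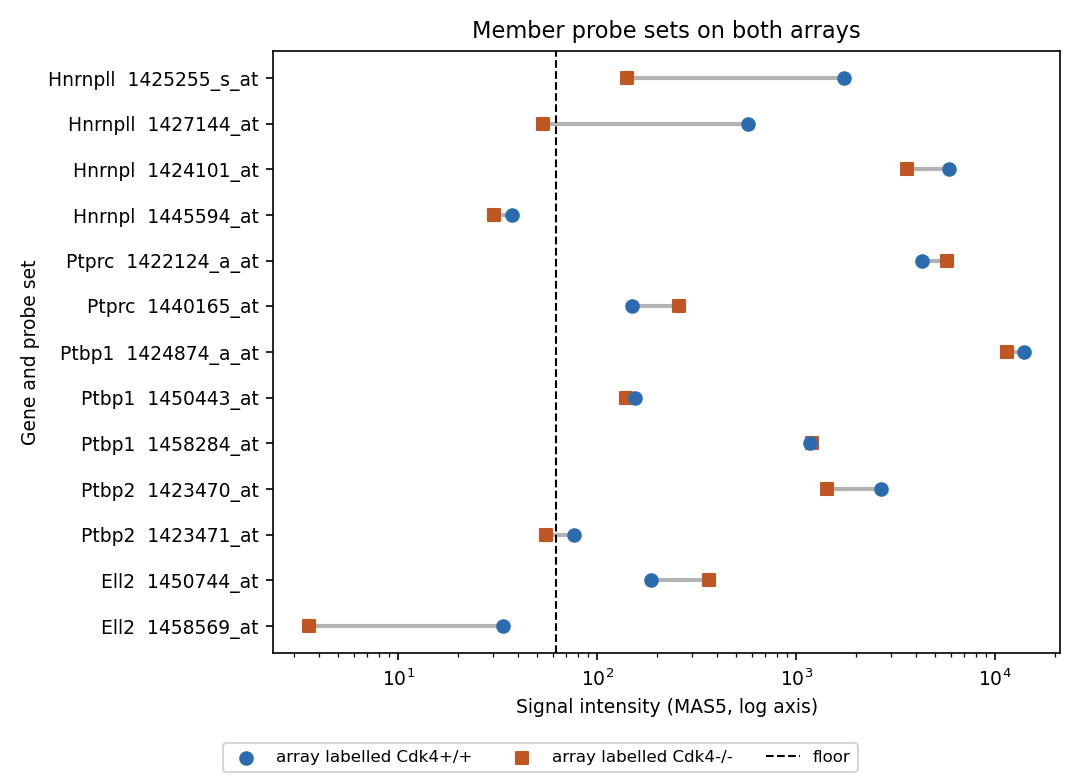
Signal intensity (log axis) of the 13 member probe sets on the array labelled Cdk4+/+ (blue circles) and the array labelled Cdk4-/- (orange squares), with the floor of 62.2 as a dashed line. Both Hnrnpll probe sets lie far apart on the 2 arrays, at 1736 against 142 and 570 against 53.2, while the 3 Ptbp1 probe sets nearly coincide.

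Hnrnpl, the general relative of Hnrnpll, was lower by far less. Its bright probe set, 1424101_at, read 5885 on the array labelled Cdk4+/+ and 3597 on the array labelled Cdk4-/-, 1.64-fold lower (log2 difference -0.71). It stayed above 97.2% and 95.0% of all probe sets on the respective arrays. The other probe set, 1445594_at, was below the floor on both arrays, at 37.3 and 30.1, and gives no fold. Of the measured genes, 15.2% differed by as much as Hnrnpl in either direction.

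Ptprc, whose exons these proteins regulate, had somewhat more signal on the array labelled Cdk4-/- by both probe sets. The bright probe set 1422124_a_at, which matches alternative transcripts of the gene, read 4285 against 5706, 1.33-fold higher (log2 difference 0.41). The dim probe set 1440165_at read 150 against 256, 1.71-fold higher (log2 difference 0.78). The 2 differences were 0.36 apart on the log2 scale, and 34.4% of the 3082 genes with paired probe sets showed a gap at least that wide. Neither reached 2-fold, and 33.4% of measured genes differed by as much as the bright probe set. CD45 transcript was thus abundant on both arrays, above 95.9% and 97.2% of probe sets by the bright probe set. These are levels of the gene and not of its exons: inclusion of the variable exons, and so the form of CD45, was not measured by either value. CD45 is also carried by macrophages. Their markers were higher on the array labelled Cdk4-/-, with 9 of 10 above the floor there and 4 of 10 on the array labelled Cdk4+/+, and a summed intensity of 4279 against 419. The 4 with the largest difference were Lyz1 at 5.74 against 1890, Lyz2 at 70.1 against 1368, Csf1r at 85.5 against 221 and C1qa at 1.27 against 139. Lyz1 and C1qa are bounds, and Lyz1 and Lyz2 are the largest values in the sum of the array labelled Cdk4-/-. The Lyz1 value is from a shared probe set, with x in its name, and another such probe set read 0.51 against 1321. The Lyz1 probe set without this mark was below the floor on both arrays, at 30.2 against 13.1. Of the T and NK cell markers, Cd3e, Cd3g and Cd3d were below the floor on both arrays, and 2 of 8 were above it. These were Cd2 at 346 against 931 and, in the other direction, Cd8a at 81.6 against 63.7. This Cd8a value is near the floor and from a shared probe set, with x in its name. All other Cd8a probe sets were below the floor on both arrays. The sums over the 8 were 516 against 1067, with Cd2 the largest value in both. Of 8 stromal and endothelial markers, cells that lack CD45, 3 exceeded the floor on the array labelled Cdk4+/+ and 5 on the array labelled Cdk4-/-, with sums of 937 against 2113. Pecam1, at 695 against 777, is the largest value in both sums. Of the 6 above the floor on at least 1 array, 4 were past 2-fold higher on the array labelled Cdk4-/-: Col1a2 at 85.5 against 591, Col3a1 at 33.6 against 286, Sparc at 4.55 against 273 and Col1a1 at 3.19 against 150. The last 3 are bounds. Cdh5 went the other way, at 68.2 against 20.2, also a bound, and Pdgfra and Pdgfrb were below the floor on both arrays. Both analysed erythroid markers, Hba-a1 and Alas2, were below the floor on both arrays. The part of such cells in the Ptprc values was not tested, and in a bulk sample more cells of a type and more RNA per cell cannot be told apart.

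Of the polypyrimidine tract binding proteins, Ptbp2 stood at -0.91 and Ptbp1 at -0.28 by their brightest probe sets. With chromosome medians set to 0 they stood at -0.48 and -0.30, closer together than the probe set SD of 0.31. For Ptbp1 the probe sets read 13961 against 11471 (1424874_a_at), 156 against 139 (1450443_at) and 1169 against 1196 (1458284_at). The log2 differences were -0.28, -0.16 and 0.03, so the probe sets did not share a sign, and the widest gap among them was 0.32. Of paired genes, 39.9% showed a gap at least that wide. Ptbp1 thus had no difference beyond the disagreement of its own probe sets, and it was above 99.2% of probe sets on both arrays by the brightest. Under quantile normalization the difference of the brightest probe set was -0.04, and without shared probe sets the gene stood at 0.03. Ptbp2 was lower on the array labelled Cdk4-/-, at 2674 against 1423 by 1423470_at, or 1.88-fold (log2 difference -0.91). The other Ptbp2 probe set, 1423471_at, read 76.0 against 55.1, at least 1.22-fold lower. Both values of Ptbp2 lay in the same direction, but the dim one sat at the floor. With 9.44% of measured genes differing by as much, Ptbp2 came near the 2-fold line without reaching it.

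Ell2 lay just short of 2-fold in the other direction. Its probe set 1450744_at read 185 on the array labelled Cdk4+/+ and 365 on the array labelled Cdk4-/-, 1.97-fold higher (log2 difference 0.98), and 8.06% of measured genes differed by as much. The other probe set, 1458569_at, read 33.5 against 3.56, both below the floor, and gives no fold although its order was opposite. Ell2 therefore rests on 1 probe set of modest signal, 2.98 times the floor on the array labelled Cdk4+/+ and 5.88 times on the array labelled Cdk4-/-.

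**Figure D2:**
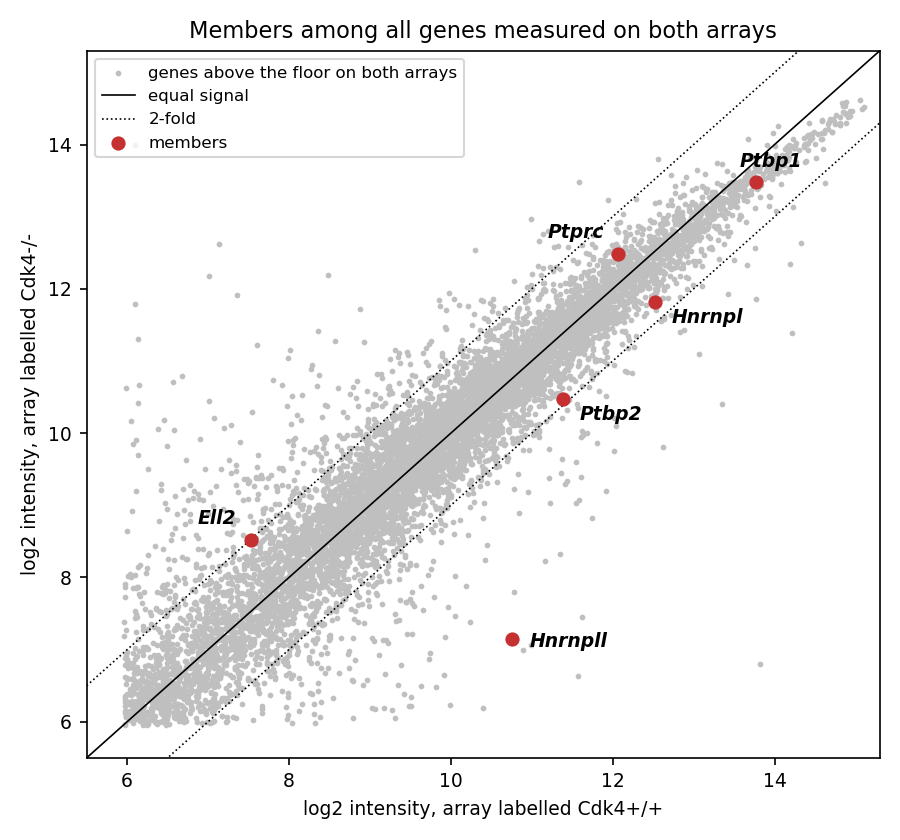
Log2 intensity on the array labelled Cdk4-/- (vertical) against the array labelled Cdk4+/+ (horizontal) for the 9418 genes measured on both (grey), with the 6 members in red, the line of equal signal, and dotted lines at 2-fold. Hnrnpll stands well outside the dotted lines, Ell2 and Ptbp2 lie close to them on opposite sides, and Ptbp1 lies near the line of equal signal.

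Over the 6 members the median log2 difference was -0.50, against 0.00 over all 10720 genes, with 4 members below 0 and 2 above. In order from the lowest, the differences were those of Hnrnpll, Ptbp2, Hnrnpl, Ptbp1, Ptprc and Ell2. Ptbp2 and Hnrnpl, at -0.91 and -0.71, were closer together than the probe set SD of 0.31. The 4 RNA-binding repressors thus all lay on the side of less signal by their brightest probe set, with the reservation on Ptbp1 given above.

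Position along the chromosome went with some of these values. Ptbp2 lies on chromosome 3, where the median difference was -0.43 over 522 genes. Of the 20 nearest genes above the floor, 10 on each side, 17 were below 0, with a median of -0.28. Relative to the chromosome 3 median, Ptbp2 stood at -0.48, against -0.91 before. The part of the chromosome in this value was not tested. Hnrnpll lies on chromosome 17, whose median was 0.05, but 15 of its 20 nearest genes were below 0, with a median of -0.39. Near it, Cdc42ep3, an effector of the GTPase Cdc42, read 1475 against 817, the kinase gene Prkd3 2025 against 1321, the helicase gene Dhx57 598 against 360 and Galm, a galactose mutarotase gene, 190 against 136. The transcript 4933407O12Rik read 72.5 against 58.3, a bound in the same direction. Cyp1b1 alone of these 6 lay in the other direction, at 1.34 against 94.4, also a bound. Relative to the median of its neighbours Hnrnpll stood at -3.22. Around Ptprc on chromosome 1 the 20 nearest genes had a median of 0.01 with 9 below 0. The immediate ones included the kinase gene Nek7 at 3106 against 2262, Dennd1b at 667 against 1096, 2310009B15Rik at 476 against 362, Zfp281 at 1471 against 1421, Ddx59 at 332 against 314 and 9230116N13Rik at 137 against 156. The neighbours of Hnrnpl, Ptbp1 and Ell2 had medians of -0.07, -0.04 and 0.19.

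**Figure D3:**
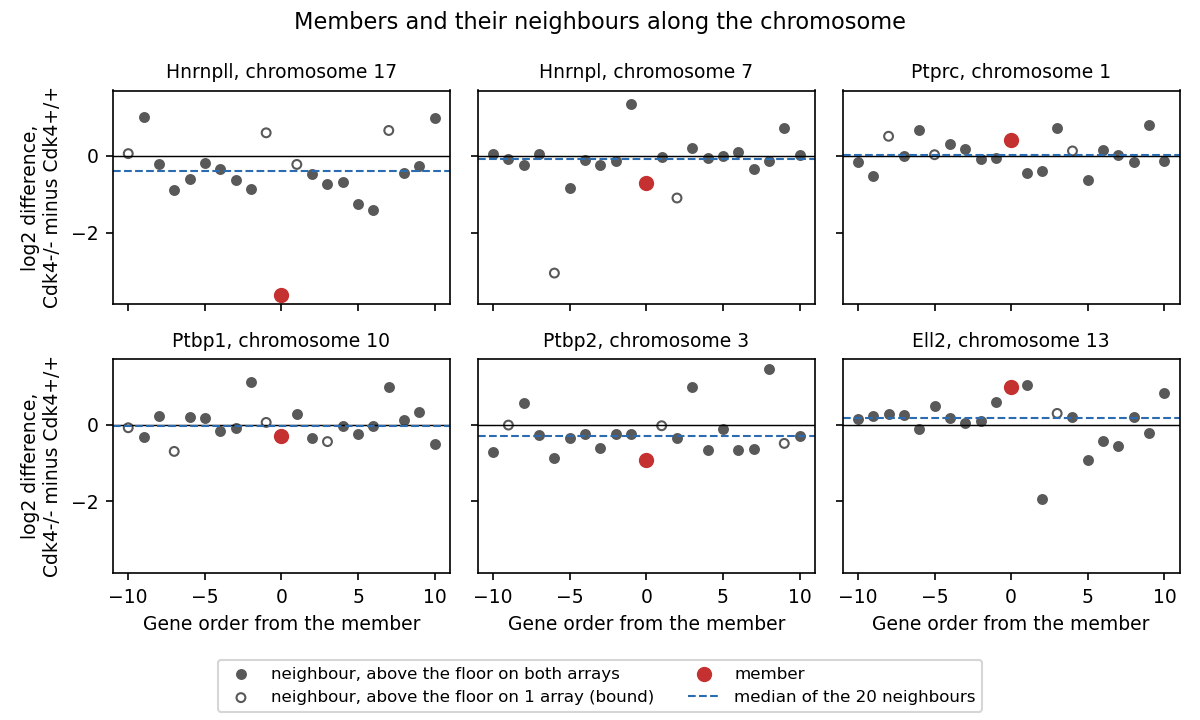
Log2 difference, Cdk4-/- minus Cdk4+/+, of each member (red) and of the 10 nearest genes above the floor on each side (filled, above the floor on both arrays; open, on 1 array), by gene order. The dashed line is the median of the 20 neighbours. Around Hnrnpll and Ptbp2 these medians were -0.39 and -0.28, and Hnrnpll lies far below all of its neighbours.

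Other regulators of CD45 splicing lay between -0.38 and 0.64 by the brightest probe set of each gene, with larger differences on some dimmer ones. Of 15 listed regulators of CD45 exons and relatives of the PTB proteins, 13 were analysed, 13 were measured on both arrays, and by the brightest probe set 0 differed by 2-fold in either direction, against 9.9% of all genes, and a list of this length cannot tell such shares apart. Their median was -0.17 with 8 below 0, which turned to 0.02 under quantile normalization. By that probe set Celf2, an RNA-binding regulator of splicing in lymphocytes, differed most, at 4569 against 7097 (log2 difference 0.64). Ptbp3, the PTB relative of blood cells, read 5945 against 6405, and Sfpq, which binds the silencing element of CD45 in T cells, 6091 against 6600. The 6 Sfpq probe sets split, with 3 above 0 and 3 below and a range from -0.91 to 0.67. Hnrnpu, a nuclear scaffold protein that binds RNA, had 5 probe sets, of which 4 were below 0. The brightest read 18415 against 14119, and 2 dimmer ones were past 2-fold, at 1906 against 918 (-1.05) and 1747 against 775 (-1.17). Another lay at 0.07, so the probe sets of Hnrnpu disagreed in size and in sign. Hnrnpk read 12571 against 10823 and Raver1, a co-repressor of PTB, 1808 against 1585. Under quantile normalization the brightest probe sets of Hnrnpu, Hnrnpk and Raver1 stood at -0.03, 0.01 and -0.22, against -0.38, -0.22 and -0.19 before.

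Among genes that act with or against the CD45 phosphatase, 10 of 11 lay above 0, the side of Ptprc, and 2 reached 2-fold. Of 15 listed, 12 were analysed and 11 were above the floor on at least 1 array. Over all genes 5376 of 10720 lay above 0, and 5.84% were 2-fold higher and 4.06% lower, whereas 0 of the 11 were 2-fold lower. The median was 0.63 (0.59 under quantile normalization), against 0.00 over all genes, and the list was not tested. Ptpn6, the phosphatase SHP-1 that restrains B-cell receptor signalling, read 2153 against 5125, 2.38-fold higher, and its other probe set 952 against 1610. Fgr, a Src-family kinase of myeloid and B cells, read 61.0 against 137, at least 2.20-fold higher. Fyn, a CD45 substrate, read 498 against 896, and Jak1, a cytokine receptor kinase that CD45 can dephosphorylate, 1490 against 2810. Blk, another kinase of the Src family, read 630 against 978. Syk was the 1 gene below 0, at 5158 against 4372, with all 4 of its probe sets lower. The genes of this list named whatever their values barely differed. Ptprcap, the CD45-associated protein, read 5394 against 6098, the inhibitory receptor gene Cd22 5127 against 5415, and Csk, the kinase that adds the phosphate CD45 removes, 5275 against 5496. Ptpn6 and Fgr are also genes of macrophages, whose markers were higher on the same array as given above, and the part of such cells in these values was not tested. Among 10 other receptor phosphatases and large surface proteins, 7 were above the floor, with a median of 0.12, and 1 reached 2-fold by its brightest probe set, Ptpre at 28.3 against 126, a bound. All 4 probe sets of Ptprs, a receptor phosphatase gene, were below 0. The brightest read 3762 against 3108 (-0.28), and 2 dimmer ones were past 2-fold, at 186 against 64.9 (-1.52) and 452 against 204 (-1.14). Ptpra read 1020 against 1241 and Cd44 2766 against 3138.

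Eaf2, a direct binding partner of ELL proteins that stimulates their elongation activity, went opposite to Ell2. It read 1207 on the array labelled Cdk4+/+ and 166 on the array labelled Cdk4-/-, 7.26-fold lower (log2 difference -2.86), by its 1 probe set. By the brightest probe set it was the only 1 of 15 analysed members of the ELL and super elongation complex list to reach 2-fold, a share near the 9.9% of all genes. Of the 15, 9 were below 0, with a median of -0.10. Cdk9, the kinase of the complex, read 6150 against 7671 by its brightest probe set and 205 against 440 (1.10) by a dimmer one, which was past 2-fold. The scaffold genes Aff1 and Aff4 read 2404 against 1429 and 1011 against 686, the deubiquitinase gene Usp37 635 against 477 and Ell itself 350 against 327. Aff1 had 3 probe sets above the floor, and all 3 were below 0, from -0.94 to -0.75. The paralogue Ell, unlike Ell2, thus showed no difference beyond the probe set SD by its brightest probe set, while its other one read 118 against 74.1.

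Genes of the plasma cell stage, in which Hnrnpll and Ell2 are both induced, were listed with RNA processing factors. The list lay on both sides of 0, as all genes did. Of 15 plasma cell and immunoglobulin processing genes, 11 were above the floor, 6 of them above 0 and 5 below, with a median of 0.03. Among the 11, Cstf1, Cstf2, Cstf3, Cpsf1, Hnrnpf and Hnrnph1 are RNA processing factors, which lay between -0.36 and 0.22 by the brightest probe set. Dimmer probe sets of these factors reached -0.59 (Hnrnph1) and 0.65 (Cstf3). The median is the value of Cstf2. By the brightest probe set 1 was 2-fold higher and 1 lower, against 5.84% and 4.06% of all genes. Bhlha15, a factor of secretory cells, read 964 against 100.1, the same direction as Hnrnpll. Derl3, a component of protein disposal in the endoplasmic reticulum, read 179 against 660, and Xbp1, the factor that expands secretion, 1981 against 3663, the same direction as Ell2. Irf4 read 6590 against 3734. Prdm1, which encodes the plasma cell regulator Blimp-1, was below the floor on both arrays, at 56.5 and 50.5. Jchain, Tnfrsf17 and Creb3l2 were also below it on both. Sdc1 was above the floor on both, at 993 against 1106, and its 4 probe sets split, with 2 above 0 and 2 below.

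**Figure D4:**
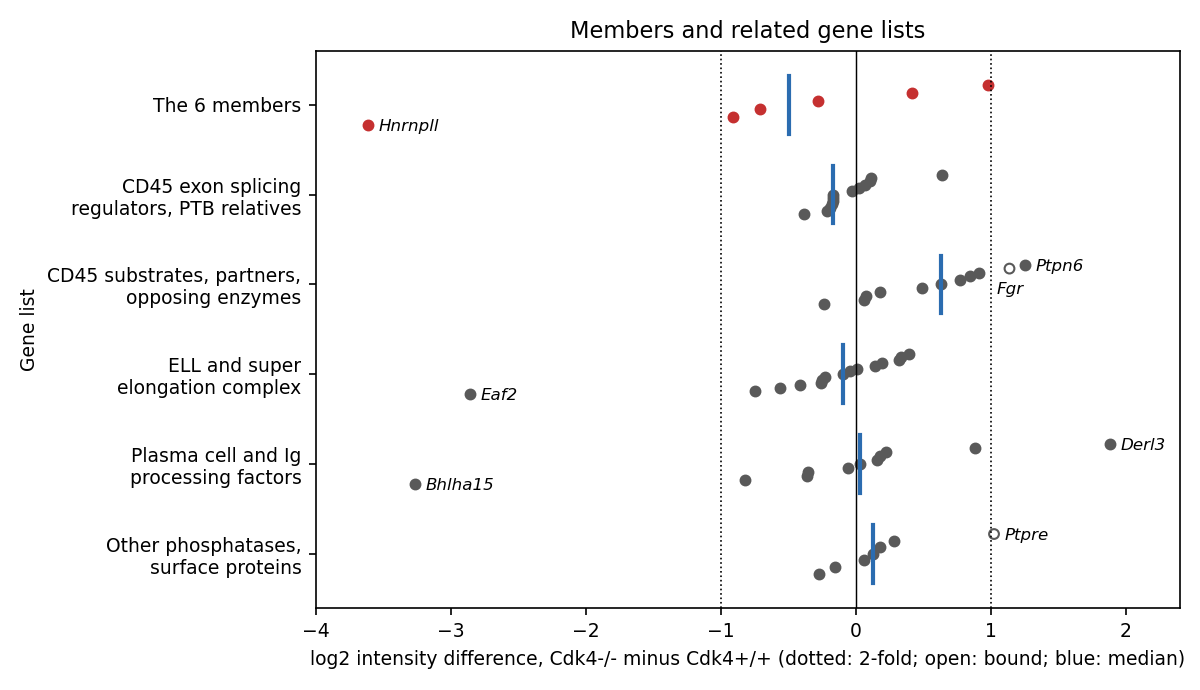
Log2 difference, Cdk4-/- minus Cdk4+/+, of the 6 members (red) and of genes in 5 related lists (grey; open circles are bounds), with each list's median in blue and dotted lines at 2-fold. By the brightest probe set of each gene, splicing regulators lie between -0.38 and 0.64. Hnrnpll at -3.61, Bhlha15 at -3.27 and Eaf2 at -2.86 lie far below the rest of their lists.

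The genes most like Hnrnpll were sought as those nearest to it in the plane of the log2 signals of the 2 arrays, which is a likeness over 2 points only. Genes on X or Y or without a chromosome, immunoglobulin and T cell receptor genes, and transcripts without a gene name were left out. Of the remaining genes measured on both arrays, the 5 nearest were Ly6d (distance 0.20), Eaf2 (0.57), Cgas (0.78), Rhob (0.83) and Kcnk1 (0.91). Ly6d, an antigen found on early lymphoid progenitors of the B lineage, read 1900.5 against 128. Cgas, the sensor of cytosolic DNA, read 1064 against 177 and by its second probe set 550 against 74.9. Rhob, a small GTPase gene, read 978 against 145, and Kcnk1, a potassium channel gene, 3140 against 176. All 5 lie on chromosomes other than 17, but this depends on the omissions. The transcript 1700097N02Rik, left out for want of a gene name, lies on chromosome 17 as Hnrnpll does. On both arrays its signal was closer to that of Hnrnpll than the signal of Eaf2 was.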

How the data were processed

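Total RNA of 2 cultured B-cell lymphomas, 1 per genotype, was hybridised to 1 array each, from 6 µg per the labels' protocols. The authors deposited linear signal intensities for 45101 probe sets, from MAS5 per the submitters' processing notes, with its version not given in the sources used. Detection calls were not used here. The trimmed mean, with 2% left out at each end, was 500.003 on both arrays, so scaling by it changed nothing.

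From the deposited intensities, signals under the median of both arrays (62.2) were set to it and log2 taken, with Python 3.11.15, numpy 2.4.6 and pandas 2.3.3. The 64 control probe sets were left out, and 34945 others had 1 symbol in the platform annotation. The probe set with the highest mean log2 signal stood for a gene, which left 18193 genes, 10720 of them above the floor on at least 1 array. Calling a gene meant a difference of 2-fold or more, bounds included. A RefSeq gene table of GRCm38.p6 gave chromosomes and gene order. The steps were tested on simulated data.

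The members and lists were chosen with earlier results of these data known. Named were all members, Cdk4 and the 5 genes nearest to Hnrnpll after the omissions given above. So were the 3 genes on each side of Hnrnpll and Ptprc and the 4 members of each context list with the largest difference. Prdm1, Xbp1, Irf4, Ptprcap, Cd22, Csk, Ptbp3, Sfpq and Ell were named whatever their values. Genes named from the marker lists, Cdk9, Blk, Syk, 1700097N02Rik, the other genes named from the plasma cell list, and probe sets other than the brightest were chosen after their values were seen. Some listed genes are not analysed here. The windows of 10 genes on each side and the promoter motifs were chosen after the data were seen. Alternatives were another floor, a pseudocount, quantile normalization, the mean of probe sets, no shared probe sets (names with a, s, x or f), and chromosome medians set to 0.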

Additional observations from a re-analysis of the deposited data

How the results depend on the processing

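No paired analysis was possible because each genotype had 1 array, and no replicate could be left out. The signs of the Hnrnpll, Hnrnpl, Ptprc and Ptbp2 differences were kept under the 7 alternatives, and that of Ell2 under the 6 that gave a value. When the floor was the 75th percentile (458) Ell2 was below the floor on both arrays and Hnrnpll became a bound of -1.92. Without shared probe sets Hnrnpll was a bound of -3.20, Ptprc stood at 0.78 by its dim probe set, and Ptbp1 turned to 0.032 from -0.28. Ptbp2 moved to -0.48 with chromosome medians set to 0 and to -0.60 with the mean of probe sets, which takes in its probe set at the floor. Genes at 2-fold, 1061 in the main setting (626 higher, 435 lower), were 2444 with the floor at the 25th percentile (1252 higher, 1192 lower) and 322 at the 75th (201 higher, 121 lower). Signal near the floor limits the dim probe sets of Ptbp2, Hnrnpl and Ell2, and 1 array per genotype limits the rest.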

Other observations

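Some genes around the members had several probe sets that lay on the same side of 0. Celf2 had 5 probe sets above the floor, and all 5 were higher on the array labelled null, by 0.36 to 0.94 on the log2 scale. Xbp1 had 4, all higher there, by 0.65 to 1.05. The 2 Irf4 probe sets were both lower there, at -0.93 and -0.82. Fyn was higher by both of its probe sets, at 0.85 and 1.50.

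Glrx, a glutaredoxin gene that is the next measured gene after Ell2 on chromosome 13 and was named after its value was seen, had a log2 difference of 1.05, close to the 0.98 of Ell2. Rhobtb3, the gene after it, also named after its value was seen, stood at -1.94.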
